A study of Mus musculus with 2 samples.

Results

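The weakest autosomal boundaries of the 3D genome map of mature olfactory sensory neurons were the 861 boundaries, of 6994 on the autosomes and 7367 in all, with the lowest insulation strength. They were chosen by their deposited strength score, taking every autosomal boundary with a score under 0.25. The study measured chromatin contacts by in situ Hi-C, which cuts crosslinked chromatin with DpnII, ligates ends that lie close together in the nucleus and sequences the joined pieces. Its only group was mature neurons that had chosen Olfr1507 (also MOR28) as their odorant receptor gene, sorted by fluorescence from the olfactory epithelium of adult MOR28-GFP mice of strain 129P2/OlaHsd and mixed sex, untreated and fixed in 1% formaldehyde. The 2 bioreplicates, of 170000 and 220000 cells, were pooled into 1 boundary list on build GRCm38. There is therefore no other condition, no replicate error on any score and no p-value here, and the read depth behind the list is unknown. The cell type could not be checked against marker genes, since contacts carry no expression level, and the design of the GFP allele was not given in the sources used here.

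Chromosomes fold into domains whose loci contact one another more than their neighbours, and a boundary is a place across which contacts are scarce. Many boundaries form where cohesin, which extrudes loops of chromatin, stops at the DNA-binding protein CTCF, most readily when the CTCF motif points toward the incoming cohesin. Others lie at active promoters or where active and inactive chromatin meet. In olfactory sensory neurons each cell expresses 1 odorant receptor gene, while the many silent receptor gene clusters gather in compact chromatin, which makes domain organisation around gene clusters of interest in this tissue.

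Every boundary was a 5 kb interval, and every interval on both sides of the threshold was scored in the same pooled list. Scores of the weakest boundaries ran between 0.200004 and 0.249968, with a median of 0.224, against a median of 0.665 among the other 6133 autosomal boundaries. The others comprised 2217 boundaries that the deposited list also classes as weak, with scores of 0.25 to under 0.5, and 3916 that it classes as strong. The 3 boundaries just inside the threshold had scores of 0.249916, 0.249947 and 0.249968. The 3 just outside had 0.250033, 0.250082 and 0.250091, so the threshold fell in an unbroken run of scores. These values chose the members and support nothing further. Below, the window of a boundary is its interval plus 10 kb on each side, a bin is any 5 kb interval of the autosomes, and intervals in parentheses are 95% intervals that cover counting error over boundaries only.

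Sequences are shown for CTCF matches and for promoters at the weakest boundaries. The first set holds the CTCF motif matches found inside the 5 kb interval itself, in order of score, because few weakest boundaries had one. Each run is read from GRCm38 in the direction of the motif, with 10 flanking bases on each side and the 12-letter match in capitals. The set covers 8 boundaries, each named by the gene at or nearest to it.
Artn, chr4:117932622-117932653, reverse strand: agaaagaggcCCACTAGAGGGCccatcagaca
Sorcs2, chr5:36251237-36251268, forward strand: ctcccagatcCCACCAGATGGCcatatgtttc
Casc1, chr6:145187245-145187276, reverse strand: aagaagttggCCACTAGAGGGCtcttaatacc
Fam3b, chr16:97481465-97481496, forward strand: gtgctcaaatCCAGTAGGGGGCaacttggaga
Tmem87b, chr2:128817472-128817503, reverse strand: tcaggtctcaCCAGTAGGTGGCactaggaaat
Rnf152, chr1:105362912-105362943, reverse strand: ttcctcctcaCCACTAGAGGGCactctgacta
Olfr554, chr7:102636900-102636931, reverse strand: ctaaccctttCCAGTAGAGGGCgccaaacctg
Cntnap2, chr6:45323687-45323718, forward strand: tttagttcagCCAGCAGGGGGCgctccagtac
Over the weakest boundaries of all autosomes but 1, which is not printed here, the intervals held 29 matches in 13 forms of the 12 letters, 17 on the forward and 12 on the reverse strand. A match is a string of letters in the reference genome of strain C57BL/6J, not a measured binding site.

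The second set shows the 100 bases upstream of 3 genes whose start lies in the interval of one of the weakest boundaries with the lowest scores, taken from RefSeq on GRCm38.p6, with each CpG in capitals. Psmb3 encodes a subunit of the proteasome, Gamt the enzyme that completes creatine synthesis, and Eif5b a translation initiation factor.
Psmb3, chr11:97703334-97703433, forward strand: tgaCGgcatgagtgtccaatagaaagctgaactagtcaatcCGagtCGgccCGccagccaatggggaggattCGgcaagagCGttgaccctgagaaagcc
Gamt, chr10:80261013-80261112, reverse strand: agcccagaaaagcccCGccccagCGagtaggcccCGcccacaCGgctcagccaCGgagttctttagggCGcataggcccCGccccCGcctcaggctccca
Eif5b, chr1:37997910-37998009, forward strand: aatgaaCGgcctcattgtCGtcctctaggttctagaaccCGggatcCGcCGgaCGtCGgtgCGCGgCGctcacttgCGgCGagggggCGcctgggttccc
These runs hold 6, 8 and 13 CpGs. Of 57 genes with a start in a weakest interval, 43 matched the RefSeq table. Over these 43 the median was 9 CpGs per 100 upstream bases, the range 0 to 20, and 29 held 8 or more. CpGs upstream of genes at other boundaries or elsewhere were not counted, so whether these values differ from those of other promoters was not tested. The 100 bases at the midpoint of the weakest boundary of all, chr4:54457451-54457550 on the forward strand, hold no CpG and 39% GC.
Lowest score: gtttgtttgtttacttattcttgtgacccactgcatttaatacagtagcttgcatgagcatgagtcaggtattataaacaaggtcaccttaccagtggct
That boundary lies 488 kb from the nearest protein-coding gene start, that of Zfp462, and such an intergenic place was the more frequent setting among the weakest boundaries.

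Promoters were scarcer at the weakest boundaries than at the others, and about as frequent as at any place on the autosomes. A protein-coding transcription start site (TSS) lay in the window of 160 of 861 weakest boundaries (18.6%, 16.1 to 21.3), against 31.2% of the other autosomal boundaries (30.1 to 32.4). The share over all 479191 autosomal bins, taken with the same window, was 17.2%. The difference between weakest and other boundaries was -12.6 points (-15.3 to -9.66), and that to the other weak boundaries alone, at 25.7%, was -7.13 points (-10.2 to -3.87). Inside the 5 kb interval itself a coding TSS was found at 48 weakest boundaries (5.57%), against 9.62% of the others and 4.01% of bins. Within 50 kb the shares were 38.2% of the weakest, 63.6% of the others and 43.2% of bins, so at this distance coding starts were scarcer around the weakest boundaries than around an average bin.

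Other gene features ran the same way. Starts of any annotated gene, noncoding genes and pseudogenes included, lay in the window of 33.9% of the weakest boundaries, 48.5% of the others and 35.5% of bins. Ends of coding genes lay in 16.7% of weakest windows, 29.5% of other windows and 16.4% of bin windows. Long noncoding RNA starts were in 11.6% of the weakest windows, 15.2% of the other windows and 11.6% of bin windows. MicroRNA genes were in 13 weakest windows (1.51%, 0.884 to 2.57), against 2.90% of the others and 1.78% of bins. Both shares at the weakest were thus near those of bins. Pairs of coding promoters within 1 kb that point away from each other were in 10 weakest windows (1.16%) and 2.12% of the others, a difference whose interval included 0.

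**Figure D1:**
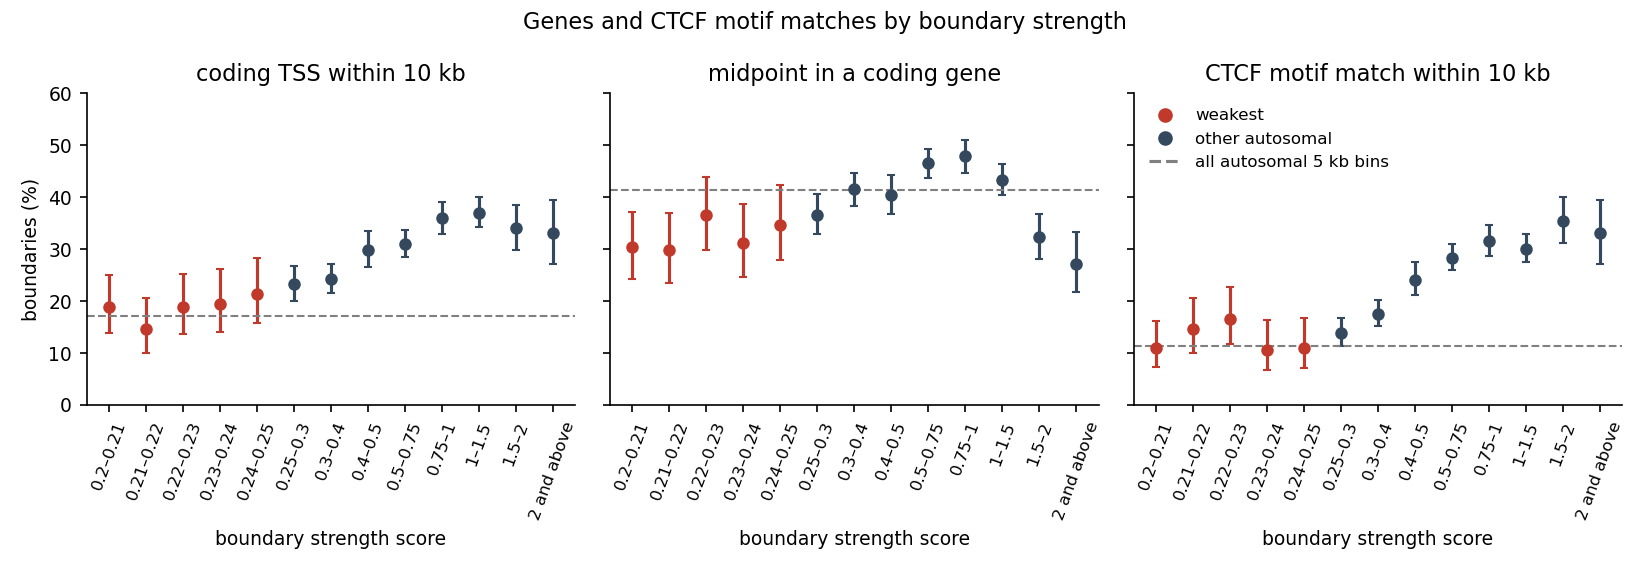
Share of autosomal boundaries (%, with 95% Wilson intervals) with a coding TSS in the window, with the midpoint in a coding gene and with a CTCF motif match in the window, by strength score from low to high; the dashed line is the share over all autosomal 5 kb bins. The 5 slices of the weakest boundaries sit near the dashed line for TSSs (14.6% to 21.3%) and CTCF matches (10.6% to 16.6%) and below it for gene bodies (29.8% to 36.6%).

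Across the score, the plot of shares by strength shows no step at 0.25. The TSS share was 18.8%, 14.6%, 18.9%, 19.4% and 21.3% in slices of 0.01 from 0.20 to 0.25, then 23.2% from 0.25 to under 0.30 and 24.3% from 0.30 to under 0.40. The intervals of the 5 slices under 0.25 all overlapped, so no trend could be read within the weakest boundaries themselves.

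Among weakest boundaries with a coding start inside the interval, the lowest score, 0.201, belonged to the boundary at chr11:97700001-97705000, which holds the starts of Psmb3 and of Pcgf2, a Polycomb-group gene. It lay 70 kb from a boundary of score 0.292 on its left and 80 kb from one of 0.429 on its right. Next, at scores of 0.201 each, came chr10:80260001-80265000, with Gamt and the RNA-binding protein gene Dazap1, and chr1:37995001-38000000, with Eif5b and Txndc9, a thioredoxin-domain gene. A boundary at chr5:149180001-149185000 of score 0.203 held the starts of Hmgb1, which encodes an abundant chromatin protein, and Uspl1. At chr4:12085001-12090000, of score 0.207, the interval held the start of Rbm12b2 and its midpoint lay in Tmem67, a gene of the ciliary transition zone. Keratin-associated protein gene Krtap31-2 began at chr11:99935001-99940000, of score 0.202, and its 100 upstream bases held 0 CpGs. That boundary had one of the strongest neighbours of any weakest boundary, of score 3.10, at 380 kb on its right.

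Gene bodies covered the weakest boundaries less often than the other boundaries and less often than bins. The midpoint lay in a protein-coding gene at 280 weakest boundaries (32.5%, 29.5 to 35.7), against 42.1% of the others and 41.4% of bins. The difference to the others was -9.53 points (-12.8 to -6.10). The others were not uniform. Their share was 32.3% at scores of 1.5 to under 2 and 27.2% (21.8 to 33.4) at 2 and above. A low share was thus not particular to the weakest. The interval overlapped a coding exon at 19.5% of the weakest, 35.1% of the others and 22.8% of bins. It lay in a coding gene without touching an exon at 16.3% of the weakest and 13.5% of the others, which is 2.78 points more (0.301 to 5.52), and at 21.6% of bins. Against the other weak boundaries alone, of which 15.5% lay so, the difference was 0.744 points with an interval from -2.05 to 3.73. Both a coding TSS in the window and a coding gene over the midpoint were lacking at 510 weakest boundaries (59.2%), against 43.1% of the others and 50.9% of bins.

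The genes that did hold a weakest midpoint had a higher median length than those that held the midpoint of another boundary. The median was 123 kb (106 to 156) over 280 weakest boundaries, against 80.4 kb (73.5 to 86.9) over 2579 other boundaries in genes. Host length was not computed over bins, so whether these genes were longer than those at any autosomal place was not tested. Against the other weak boundaries, with a median of 115 kb, the difference of means was 27.3 kb with an interval from -41.1 to 95.6, so the 2 kinds of weak boundary could not be separated by host length. The midpoint lay in a gene of 200 kb or more at 116 weakest boundaries (13.5%), against 12.1% of the others, a difference whose interval included 0. Ptprd, a receptor tyrosine phosphatase of synapses, held 3 weakest boundaries with scores of 0.221, 0.231 and 0.249. Cntnap2, a neuronal adhesion gene of the neurexin family, also held 3, with scores of 0.210, 0.217 and 0.231, the first of which carries the CTCF match shown above at 263 kb from the gene's TSS. Dlg2, a scaffold of the postsynaptic density, held 2, with scores of 0.226 and 0.233, on either side of a boundary of score 3.004. Single weakest boundaries lay in Lsamp, a cell adhesion gene, and in Lrp1b, a lipoprotein receptor gene.

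Gene deserts were the setting of many weakest boundaries. No coding TSS lay within 500 kb of 160 of them (18.6%, 16.1 to 21.3), against 5.14% of the others (4.61 to 5.72) and 12% of bins, a difference to the others of 13.4 points (10.9 to 16.2). The share was 10.6% among the other weak boundaries and 2.02% among the strong. The median number of coding TSSs within 500 kb was 3 at the weakest (3 to 4), 6 at the other weak and 9 at the strong boundaries, and 5 at bins. The nearest coding TSS lay a median of 105 kb away (90.2 to 130) from the weakest boundaries, against 28.8 kb (27.1 to 30.1) from the others.

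By gene class, 205 of the 20807 autosomal coding genes (0.985%) had a TSS in the window of a weakest boundary, and 2744 (13.2%) in the window of any autosomal boundary, so the weakest held 7.47% of the genes at boundaries. Classes were counted by symbol, whatever their place, and no class was tested. Of 80 cytosolic ribosomal protein genes, 28 lay at a boundary and 0 at one of the weakest. Of 100 genes of the respiratory chain, 25 lay at a boundary and 0 at one of the weakest. The 16 proteasome genes at boundaries included 1 at a weakest boundary, Psmb3, and the 18 mitochondrial ribosomal protein genes at boundaries included 1, Mrps26, at chr2:130550001-130555000 with a score of 0.243. These housekeeping classes are among those with many genes at boundaries, and the counts at the weakest are too small to order them.

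Receptor and neuronal classes had small counts at the weakest boundaries, to be read against the 0.985% of all coding genes. Odorant receptor genes had 8 of 1128 at a weakest boundary (0.709%) and 67 at any boundary, and vomeronasal receptor genes, which detect pheromones, had 4 of 327 (1.22%) and 18. Of the genes at any boundary, those at a weakest one made up 11.9% of the odorant receptor genes, 22.2% of the vomeronasal receptor genes and 7.47% of all coding genes. The odorant receptor genes were Olfr1095, Olfr1242, Olfr1305, Olfr478, Olfr554, Olfr672, Olfr785 and Olfr839-ps1. Of 385 zinc finger genes of the Zfp series, 5 lay at a weakest boundary, and of these Zfp74, at chr7:29945001-29950000, had the lowest score, 0.216. The 24 genes listed for mature olfactory sensory neurons had 5 at a boundary and 0 at the weakest, the 27 listed regulators 6 and 0, and the 13 genes of immature neurons 1 and 0. Single neuronal genes did have their TSS there. Scn8a, a voltage-gated sodium channel, lay at a boundary of score 0.241, Tenm3, a teneurin of synaptic partner matching, at 0.211, and Slc17a7, a vesicular glutamate transporter, at 0.212 together with Aldh16a1 and Pih1d1. As host genes, 5 glutamate and GABA receptor genes (Gabrb1, Gabrg3, Gria2, Grik2 and Grm7) held 6 weakest midpoints, which is 0.697% of the weakest, against 0.228% of the others and 0.481% of bins. Neuronal adhesion genes held 11 weakest midpoints in 9 genes, which is 1.28% of the weakest, against 0.799% of the others and 1.35% of bins. Other classes went either way. Vomeronasal receptor genes held 4 (0.465%, against 0.179% of the others and 0.218% of bins). Odorant receptor genes held 1 (0.116%, against 0.310% and 0.315%) and solute carrier genes 5 (0.581%, against 0.783% and 0.772%). Genes listed for mature olfactory sensory neurons held 0, against 0.147% and 0.123%. For all these host classes but the glutamate and GABA receptor genes, the interval of the difference to the others included 0. That exception rests on 6 midpoints, and its interval was not adjusted for the many classes counted, so it is description only.

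Odorant receptor gene clusters held 12 of the 861 weakest boundaries. The 32 autosomal clusters of 5 or more receptor genes with gaps under 500 kb held 60 boundaries. Of these 60, 20% were weakest, against 12.3% of all autosomal boundaries. The clusters span 29.5 Mb in all, and the share of bins in them was not computed. The 12 are 1.39% of the weakest boundaries, against 0.783% of the others. The difference was 0.611 points with an interval from -0.0354 to 1.66, so the shares could not be told apart. The lowest score among them, 0.209, was that of chr7:102635001-102640000, in whose interval Olfr554 starts. Its CTCF match is printed above, and its left neighbour, 155 kb away, scored 2.53. The cluster on chromosome 14 that holds Olfr1507 itself, the receptor gene these neurons express, had 1 boundary, which was strong, and 0 weakest.

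CTCF motif matches were scarcer at the weakest boundaries than at the others and close to the level of bins. A match on either strand lay in the window of 110 weakest boundaries (12.8%, 10.7 to 15.2), against 26.3% of the others (25.2 to 27.4), a difference of -13.5 points (-15.9 to -10.9), and 11.3% of bins. The other weak boundaries stood at 18.5% and the strong at 30.7%. Inside the interval the shares were 3.37% of the weakest (29 boundaries), 6.83% of the others and 2.47% of bins. Within 50 kb they were 30.5% of the weakest, 56.4% of the others and 36.1% of bins. The pattern was searched by name as the degenerate CTCF core of 12 letters, which has 12245 autosomal matches, or 5.11 per Mb.

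Strand carried a signal that the number of matches alone did not. Left of the weakest midpoints, within 50 kb, 65 of 183 matches lay on the forward strand (35.5%), and right of them 110 of 197 (55.8%). The right side was thus more often forward by 20.3 points (10.3 to 29.7). At the other boundaries the shares were 34.2% of 2791 on the left and 65.1% of 2800 on the right, a difference of 30.9 points (28.4 to 33.4). Within 50 kb, matches around the weakest boundaries therefore pointed away from the midpoint more often than toward it. The same held at the other boundaries, with the larger difference over all of them together. At the other weak boundaries alone the difference was 21.97 points (16.9 to 26.9), near that of the weakest. At the strong boundaries it was 33.99 points (31.1 to 36.8). A difference of the size seen at the weakest was thus not particular to them. Within 10 kb the strands were nearly even at the weakest, with 24 forward and 28 reverse matches on the left and 31 and 25 on the right. At the others these were 339 and 503 on the left and 521 and 300 on the right. There were 44.1 matches per 100 weakest boundaries within 50 kb against 91.2 per 100 others.

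**Figure D2:**
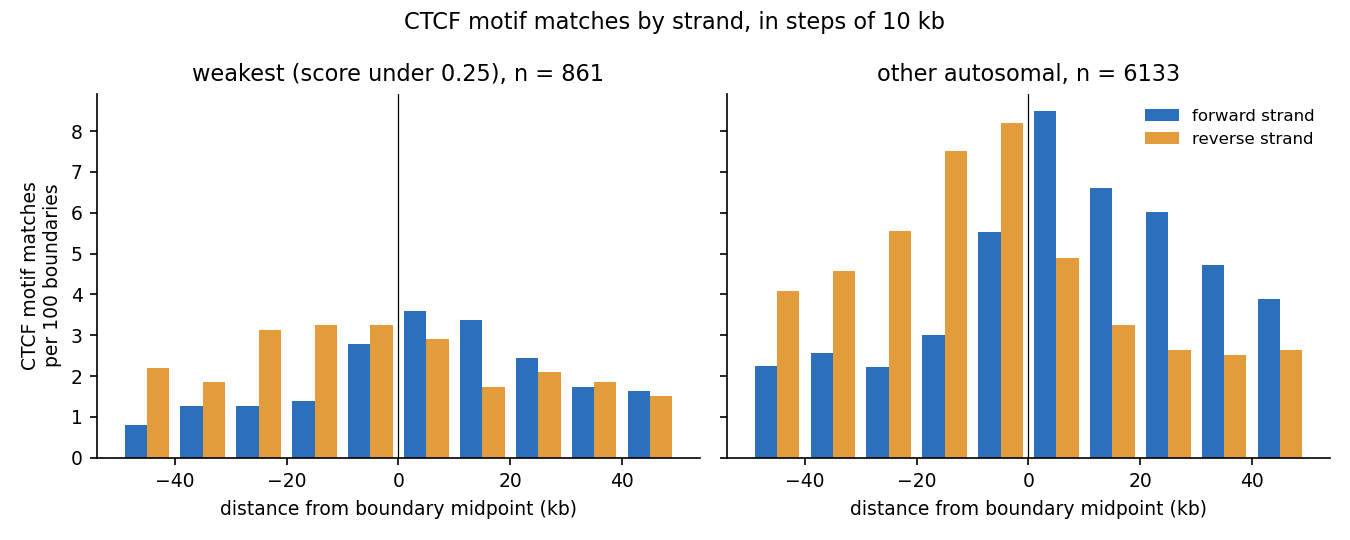
CTCF motif matches per 100 boundaries in steps of 10 kb from the midpoint, on the forward and reverse strand, at the 861 weakest (left) and 6133 other autosomal boundaries (right). Summed over the 50 kb on each side, reverse matches outnumber forward ones on the left and forward matches outnumber reverse ones on the right in both panels, although at the weakest boundaries the step from 30 to 40 kb on the right holds 15 forward and 16 reverse matches, and the bars of the weakest boundaries are shorter.

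Base composition differed in the same direction at every scale examined. The windows of the weakest boundaries had a median GC content of 40.4% (40.2 to 40.7), against 43.4% (43.3 to 43.6) at the others and 41.4% at bins. The difference of means was -2.38 points (-2.66 to -2.09), and against the other weak boundaries alone -1.47 points (-1.79 to -1.14). Within 500 kb on each side the medians were 40.5% around the weakest and 43.2% around the others, so the low GC content was that of the wider region and not of the interval alone. CpG dinucleotides numbered 7.16 per kb at the weakest, 10.2 at the others and 7.68 at bins. DpnII sites (GATC), where the assay cuts, numbered 2.56 per kb in the weakest and 2.48 in the other windows. The lowest GC content, 34.3%, belonged to chr5:56365001-56370000, 1350 kb from the start of Pcdh7, a protocadherin gene. The highest, 55.1%, belonged to chr11:120620001-120625000, with the starts of Mafg, Pcyt2 and Sirt7 in its window.

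Much of the gene and motif difference moved with GC content. In the lowest quintile of window GC content over all autosomal boundaries, which held 350 weakest, a coding TSS was in 6.29% of weakest windows and 10.4% of other windows. In the highest quintile, which held 90 weakest, the shares were 51.1% and 51.5%. For gene bodies the lowest quintile had 21.1% of the weakest against 31.1% of the others, and the highest 62.2% against 56.7%. The CTCF difference did not follow this order. It was -3.34 points in the lowest quintile, -11.4 (-14.8 to -6.78) in quintile 2 and -11.8 (-17.2 to -4.32) in quintile 3. In quintile 4 it was -1.92 (-10.6 to 8.19) and in the highest -5.03 (-14.9 to 5.64). With the other boundaries weighted to the GC deciles of the weakest, the TSS difference was -4.14 points (-6.82 to -1.21), the gene body difference -4.66 (-8.03 to -1.15) and the CTCF difference -6.23 (-8.52 to -3.64). All 3 stayed below 0 and were smaller than the unweighted differences. With weights by the number of coding TSSs within 500 kb in place of GC content, a choice made after seeing the data, the gene body difference was -3.18 points with an interval from -6.52 to 0.297, so it could no longer be told from 0.

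**Figure D3:**
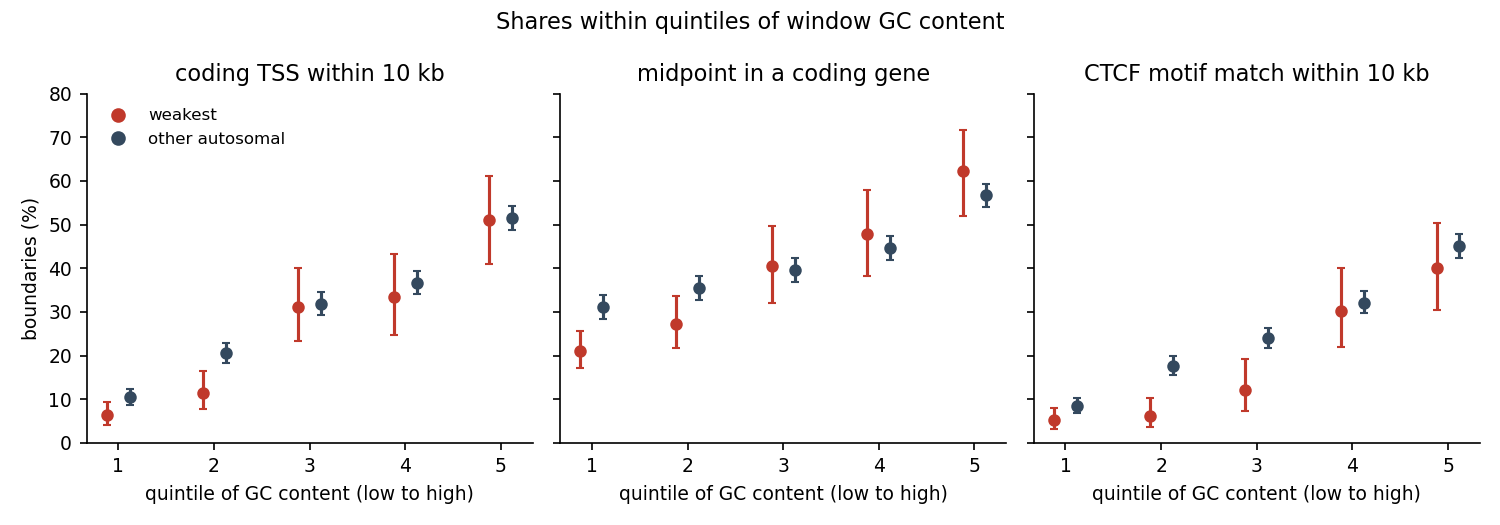
Share of the weakest and of the other autosomal boundaries (%, with 95% Wilson intervals) with a coding TSS in the window, with the midpoint in a coding gene and with a CTCF motif match in the window, within quintiles of window GC content from low to high. For the TSS the groups part in the lower quintiles (6.29% against 10.4% in the lowest) and overlap in the highest (51.1% against 51.5%). For CTCF matches they part most in quintiles 2 (6.22% against 17.6%) and 3 (12.1% against 23.9%).

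Sequence uniqueness showed a narrow pattern 10 kb from the weakest boundaries. Uniqueness was the share of 32-base sequences, sampled every 250 bases, that occur once in the genome on either strand, since short reads are placed most readily on such sequence. The median over the window was 82% at the weakest boundaries, against 91% at the others and at bins. The boundary's own interval did not differ in its median, at 95% in each. Mean uniqueness of the weakest was 86.5% in the interval and 85.1% and 85.2% at 5 kb on the left and right. It was 69.8% and 71.6% at 10 kb on the left and right, then 82.2% and 83.3% at 20 kb. At strong boundaries it was 89.0% in the interval and 83.1% and 83.4% at 10 kb, a shallower dip at the same place.

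A bin with under 50% unique sequence lay exactly 10 kb to one side or the other of 399 weakest boundaries (46.3%, 43.0 to 49.7), against 24.1% of the other autosomal boundaries and 14.3% of bins. It was on both sides at 48 of them, and in all at 236 left and 211 right positions, so both sides contributed. The share was 30.9% at the other weak and 20.3% at the strong boundaries. It did not fall steadily with strength. Among the strong it was 16.5% at scores of 0.75 to under 1. At scores of 2 and above it was 36.2% (30.2 to 42.6), so a high share was not particular to the weakest. In the interval itself such a low value was found at 53 weakest boundaries (6.16%), against 3.77% of the others and 8.77% of bins, and at a distance of 50 kb at 13.6% of the weakest, 8.36% of the others and 14.7% of bins. At 5 kb it was found at 11.6% of the weakest, 7.60% of the others and 14.2% of bins, and at 15 kb at 33.1%, 15.7% and 14.4%. Low uniqueness was thus raised above bins at 10 and 15 kb from the weakest boundaries, and not in the interval, at 5 kb or at 50 kb.

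Long repeats moved with it. In this measure, chosen after the dip was seen, a long repeat was a run of at least 5 kb of repeat-masked bases with gaps of no more than 50 bases. One lay within 15 kb of 457 weakest boundaries (53.1%, 49.7 to 56.4), against 28.99% of the others (27.9 to 30.1), a difference of 24.1 points (20.6 to 27.6). Over bins the share was also 29%. The nearest such run began between 5 and 10 kb from the midpoint at 31.6% of the weakest boundaries, 21.1% of the other weak and 13% of the strong. Its median distance was 13.1 kb (10.3 to 18.5) at the weakest, against 74.5 kb (70.2 to 79.5) at the others. The boundary of lowest score, chr4:54455001-54460000, had 80% unique sequence in its interval, 10% and 15% at 10 and 15 kb on its left, and 100% and 95% at those distances on its right. The next lowest, chr15:88820001-88825000, near the starts of Alg12 and Creld2, which act in the endoplasmic reticulum, had no value under 85% within 15 kb and its nearest long repeat 210 kb away, so the pattern did not hold at every member.

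**Figure D4:**
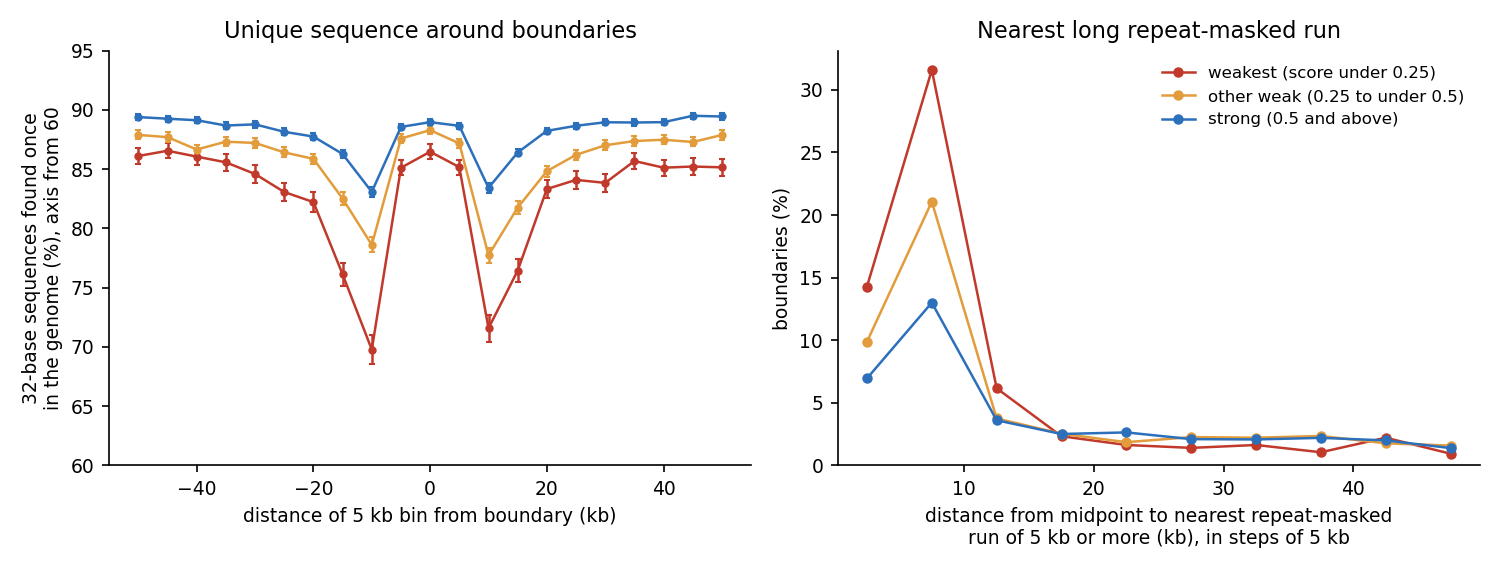
Left, mean share of 32-base sequences that occur once in the genome (%, with the standard error, axis from 60) in 5 kb bins up to 50 kb from the weakest, other weak and strong autosomal boundaries. Right, share of boundaries (%) by the distance from the midpoint to the nearest repeat-masked run of 5 kb or more; uniqueness dips at 10 kb in every class, most in the weakest (69.8% and 71.6%), and the weakest have the highest share of runs at 5 to 10 kb (31.6%).

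The gene content of the weakest boundaries split along the same line. Of the 861, 485 had a bin of under 50% unique sequence within 15 kb and 376 had none. A coding TSS was in the window of 7.22% of the 485, against 15.9% of the 1948 other boundaries with such a bin. Among boundaries with none, the shares were 33.2% of the 376 weakest and 38.3% of the 4185 others, -5.08 points with an interval from -9.89 to 0.0403. The gene body share among these was 49.7% of the weakest and 49.9% of the others, -0.158 points (-5.41 to 5.10). The CTCF share among them was 22.3% of the weakest and 31.2% of the others, -8.87 points (-13.0 to -4.18). So in boundaries without low-unique sequence nearby the gene body difference was no longer seen, the interval of the TSS difference reached 0 and the CTCF difference remained. With the other boundaries weighted instead to the unique-sequence quintiles of the weakest, both choices having been made after seeing the data, all 3 differences stayed below 0, at -7.84 points for the TSS (-10.5 to -4.89), -3.48 for the gene body (-6.75 to -0.0545) and -9.99 for CTCF (-12.3 to -7.37). Whether uniqueness contributes to the calls or to their scores was not tested.

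Spacing and neighbours come from the same calls as the score and are given as description. The nearest other boundary lay a median of 190 kb from the weakest (185 to 210), against 200 kb from the others (200 to 205). From the other weak boundaries alone it was also 190 kb (185 to 195). The stretch between the neighbours on both sides measured a median of 610 kb around the weakest and 565 kb around the others. Distances of at most 100 kb were found at 41 weakest boundaries (4.76%), against 2.51% of the others and 3.43% of the other weak alone. Distances over 500 kb were found at 52 (6.04%), against 3.83% and 5.73%. Both short and long gaps were thus more frequent around the weakest than around the others together. The share of long gaps was near that of the other weak boundaries. The position was also a little less central. The shorter side took a median of 36.3% of the stretch at the weakest and 38.5% at the others.

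The nearest neighbour of a weakest boundary had a median score of 0.468 (0.446 to 0.508), against 0.544 (0.531 to 0.559) for the others and 0.588 for the other weak boundaries. It was a strong boundary at 47.5% of the weakest, 53.9% of the others and 56.7% of the other weak. Both immediate neighbours were strong at 27.6% of the 858 weakest that had 2, and neither was at 27.3%, against 33.5% and 20% of the others. Of the 1719 neighbour places of the weakest, 248 (14.4%) were again weakest. This compares with 12.03% of the places beside the others and 13.8% of those beside the other weak. Weakest boundaries stood alone in 638 cases, in 76 pairs, in 21 runs of 3 and in 2 runs of 4 without another boundary between them.

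**Figure D5:**
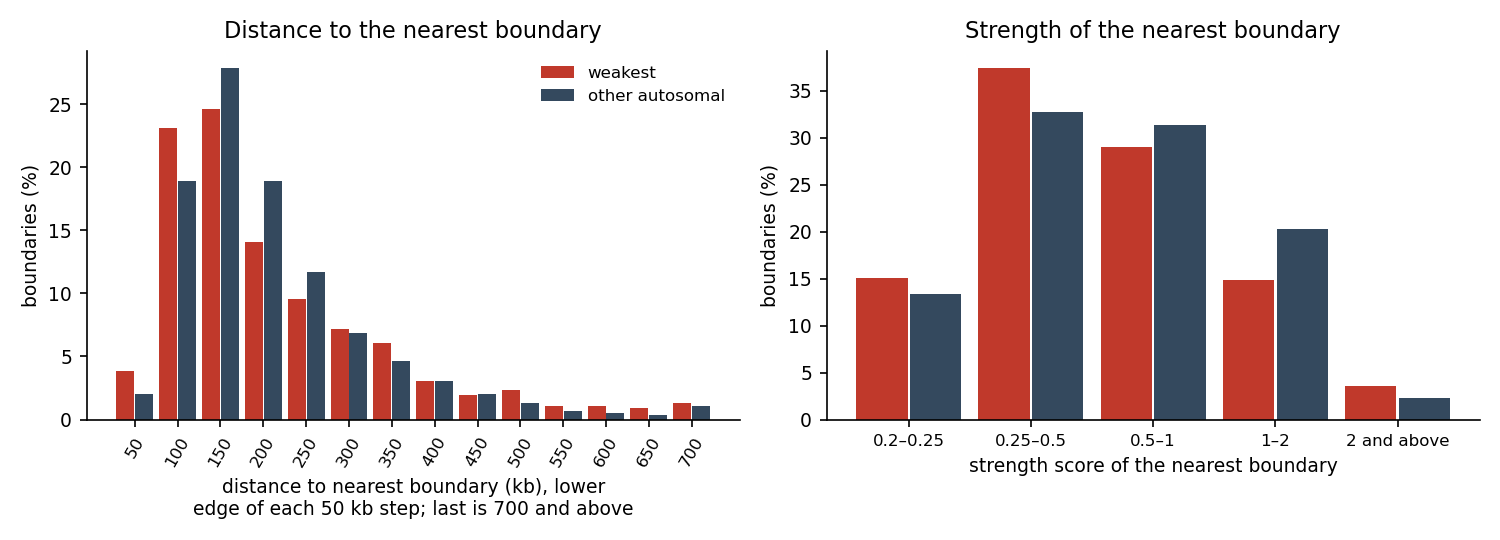
Share of the weakest and of the other autosomal boundaries (%) by distance to the nearest boundary in kb (left, steps of 50 kb, the last 700 kb and above) and by the strength score of that boundary (right). The weakest have more short and long distances than the others together, and 14.9% of their nearest boundaries scored 1 to under 2 against 20.3% for the others.

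The runs of 4 lay in intergenic regions. One stretched from chr8:43770001-43775000 to chr8:44400001-44405000, between Adam34 and the cadherin gene Fat1, with scores of 0.215, 0.211, 0.232 and 0.234. The other stretched from chr15:46180001-46185000 to chr15:47370001-47375000, between the potassium channel subunit gene Kcnv1 and Csmd3, with scores of 0.238, 0.236, 0.205 and 0.239. The most isolated weakest boundary, chr6:76240001-76245000, had its neighbours at 2140 kb on the left and 1385 kb on the right. The strongest neighbour of any weakest boundary, of score 3.81, lay 265 kb to the left of chr11:3460001-3465000, near Rnf185, a ubiquitin ligase gene.

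The weakest boundaries lay on all 19 autosomes, at 8.45% to 14.8% of each chromosome's boundaries. In TSS share they were below the other boundaries on 18 of 19 autosomes, with chromosome 11 the exception at 4.21 points above. In CTCF share and in GC content they were lower on 19 of 19, and in gene body share on 16 of 19. A low-unique bin at 10 kb was more frequent at the weakest on 18 of 19, with a median difference of 22.3 points, and chromosome 16 was the exception at -1.37 points.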

How the data were processed

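In situ Hi-C was done on 2 bioreplicates of sorted Olfr1507-expressing neurons, pooled by the authors into 1 contact matrix, per the labels, on GRCm38 per the submitters' processing notes. The deposited list holds 5 kb boundaries with a class and a strength score; the score is the authors' and was deposited without a stated scale, and its caller, settings and versions were not given in the sources used here. The tracks of insulation and of compartments were not used here. Members were chosen on that score (under 0.25), and members and gene lists were chosen with earlier results of these data known.

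From the list, windows of 10 kb on each side were set against GENCODE M21 genes and the GRCm38.p6 sequence of C57BL/6J, whose differences from 129P2/OlaHsd were not examined. GC content, CpG, GATC, soft-masking, the CTCF core (both strands) and unique 32-base sequences over 65 contigs were computed with Python 3.11.15, numpy and numba, tested on simulated sequence. The background is all 479191 autosomal bins with at least 2500 assembled bases. Shares carry Wilson intervals, differences of shares Newcombe intervals, medians binomial order-statistic intervals and differences of means normal intervals, at the 95% level. These cover counting error only, depth is unknown, and no p-value was computed. Boundaries named are those lowest in score, nearest the threshold, lowest per gene class, with a TSS in the interval, in the longest genes, closest, most isolated, in runs, or extreme in composition. Some boundaries under this rule are not reported here.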

Additional observations from a re-analysis of the deposited data

How the results depend on the processing

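Recomputing the 6 main results under the alternatives gave 60 values, of which 56 were counted as the same. For a difference, this means the same sign and an interval that still excluded 0. For the median distance to the nearest boundary, it means a value inside the main interval of 185 to 210 kb. TSS differences ranged from -25.4 to -3.26 points, CTCF from -25.9 to -3.46, GC from -2.89 to -1.26 and unique sequence from -6.92 to -2.25. The exceptions came from 2 alternatives chosen after seeing the data. Among boundaries with no low-unique bin within 15 kb, the TSS difference was -5.08 points and the gene body difference -0.158, both with intervals that include 0, and the median distance to the nearest boundary was 165 kb against 190 kb over all weakest. With the other boundaries weighted to the weakest boundaries' gene density, the gene body difference was -3.18 points, with an interval from -6.52 to 0.297. The cause was not tested. Setting the weakest against other weak or strong boundaries alone gives no new value for their own spacing. No paired analysis was possible because both replicates are pooled in 1 list, and leaving out a replicate was not possible for the same reason. Read depth, which limits which weak boundaries can be called, is unknown.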

Other observations

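On the X chromosome, which stands outside the autosomal rule, 79 of 373 boundaries had a score under 0.25 (21.2%, 17.3 to 25.6), against 12.3% of the autosomal boundaries, a difference of 8.87 points (4.95 to 13.4). The cells came from mice of mixed sex, so the number of X copies per cell differs between animals. Of these 79, 12 had a coding TSS in the window (15.2%, 8.91 to 24.7), against 18.6% of the weakest autosomal boundaries, a difference of -3.39 points with an interval from -10.2 to 6.43. A CTCF motif match was found in 1 window of the 79 (1.27%, 0.224 to 6.83), against 12.8% of the weakest autosomal windows, a difference of -11.5 points (-14.1 to -5.58). The other 294 X boundaries were also low in matches, with 13.3% against 26.3% of the other autosomal boundaries, so the share differed between the chromosomes above the threshold too. Within the X, the difference between the 79 and the other 294 was -12.0 points (-16.5 to -5.48). Median GC content was 38.2% at the 79 X boundaries and 40.1% at the other X boundaries, against 40.4% at the weakest and 43.4% at the other autosomal boundaries. Median unique sequence was 70%, 75%, 82% and 91% in the same order.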
